A study of Homo sapiens with 4 samples.

Results

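The Notch genes followed here are 10: the receptors NOTCH1, NOTCH2 and NOTCH3, the ligands JAG1, JAG2 and DLL1, and the targets HES1, HEY1, HEY2 and NRARP. They were chosen by symbol, as the probesets whose platform annotation names exactly 1 of these genes, which gave 227 of the 232479 probesets of the table. A probeset groups the few probes that lie in the same exon or exon part. Of the 227 probesets, 206 passed the filter on dim probesets, and they measured 9 of the 10 genes, against 15719 genes measured in all. No probeset carried the symbol NRARP. The genes were picked with the mimic-against-control results of these arrays already known, so their differences are given as a description and support nothing.

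The arrays came from T-47D cells, an established line of luminal, hormone receptor-positive breast cancer, grown in DMEM with serum and transfected with TurboFect. The 2 mimic arrays are of cells given a mimic of the artificial microRNA p-27-5p at 200 nM, and the 2 control arrays are of cells given a pre-miR negative control, for which the labels state no dose. The labels state neither the time between transfection and RNA extraction nor the mimic's sequence, and they do not say that the replicates were separate cultures, so the errors hold array-to-array spread that could be technical. All levels are log2 values, and all differences are on the log2 scale, mimic minus control.

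Notch is a receptor that is cut when a ligand on a neighbouring cell binds it. The freed intracellular part enters the nucleus, joins the DNA-binding protein RBPJ and switches on genes of the HES and HEY families, which encode repressors of transcription with a basic helix-loop-helix domain. In the breast the pathway is known for its part in the choice between luminal and other epithelial fates.

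Among the 9 measured genes, HEY2 had by far the largest difference, -1.37, a level 2.58-fold lower in mimic arrays. The receptors did not share a direction: NOTCH1 was higher by 0.53, while NOTCH2 and NOTCH3 differed by -0.22 and -0.30. The ligands DLL1, JAG1 and JAG2 had differences of 0.42, 0.28 and 0.12, and the targets HES1 and HEY1 had -0.17 and 0.07. HEY2 was the 1 member past limma's adjusted threshold of 0.05 (limma adjusted p = 0.0417), at rank 311 by p among the 363 genes called. This threshold was passed by 2.31% of all genes, 0.789% as lower and 1.52% as higher, and the other 8 members did not pass. Lower calls outnumbered higher ones without a filter (893 lower and 540 higher) and with an intensity trend (1067 lower and 527 higher). With 2 arrays a group a missed threshold does not show that a gene did not differ. In 8 of the 9 genes both mimic arrays lay on one side of both control arrays, 4 above and 4 below, as they did in 50.0% of all genes, 20.5% above and 29.5% below. The median of the 9 differences was 0.07, beside 0.0024 over all genes, and the median absolute difference was 0.28, beside 0.20.

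**Figure D1:**
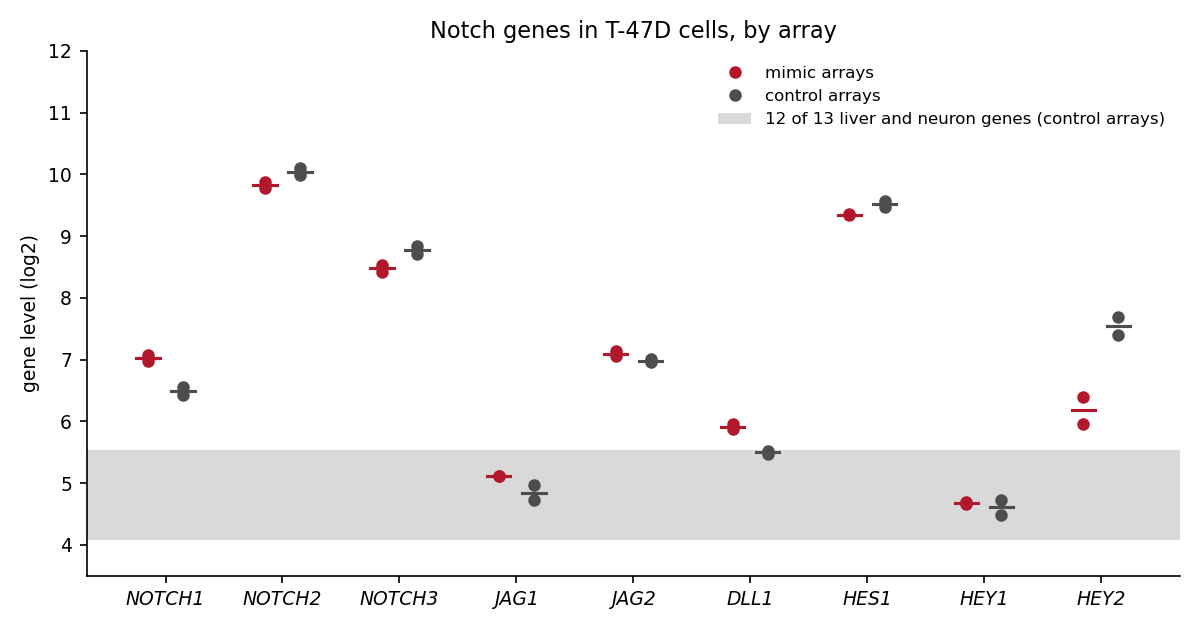
Gene level (log2) of the 9 measured Notch genes on each array, with the 2 mimic arrays in red left of the 2 control arrays in grey, and short lines at the means; the band spans 12 of 13 liver and neuron genes in the control arrays, and the 13th, SYT1, lay above it at 6.85. HEY2 shows the widest gap between groups, and JAG1 and HEY1 lie inside the band. The DLL1 control arrays, at 5.52 and 5.47, also lie inside it, just under its top.

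The proximal promoters of HEY2 and HES1 are shown because both genes are direct Notch targets and their differences were unlike, -1.37 and -0.17. The sequences are RefSeq's on GRCh38.p14, plus strand, from 250 bases before the transcript start to 10 bases after it, at chr6:125749382-125749641 for HEY2 and chr3:194135898-194136157 for HES1. Capitals mark TGGGAA, the core bound by RBPJ, or its reverse complement TTCCCA.
HEY2: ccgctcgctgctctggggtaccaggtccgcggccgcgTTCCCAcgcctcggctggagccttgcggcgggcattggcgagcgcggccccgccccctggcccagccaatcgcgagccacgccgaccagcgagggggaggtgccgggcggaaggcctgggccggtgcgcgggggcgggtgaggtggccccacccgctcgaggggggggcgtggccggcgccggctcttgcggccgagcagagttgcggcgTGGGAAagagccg
HES1: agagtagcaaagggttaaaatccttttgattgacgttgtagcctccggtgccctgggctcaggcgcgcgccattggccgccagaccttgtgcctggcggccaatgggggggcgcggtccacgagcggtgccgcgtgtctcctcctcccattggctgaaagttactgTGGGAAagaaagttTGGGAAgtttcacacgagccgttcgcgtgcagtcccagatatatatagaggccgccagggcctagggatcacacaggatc
HES1 carried the core at -84 and -70, both on the plus strand and counted from the transcript start. HEY2 carried it at -213 on the minus strand and at -3 on the plus strand. Both matches in HEY2 were part of the longer CGTGGGAA, which HES1 did not hold and which overlaps the core. RefSeq's table matched 8 of the 10 genes, and HES1 and HEY2 were the 2 of these 8 with the core in the window of 300 bases. Over all 35116 promoters of that length, 24.0% held the core and 0.826% held CGTGGGAA on either strand. A match describes the letters of the window and is no evidence of binding.

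To see which levels carry signal, 16 liver and neuron genes were listed, of which 13 were measured. Their median level in control arrays was 4.80, from 4.07 to 6.85, and genes near such levels have little signal over background. These levels are means of the probesets past the filter, so the filter at 4.08 largely sets their lower end. The differences of the 13 genes had a median of 0.13 and ran from -0.42 to 0.82. A difference near such levels can understate a change, and differences of this size also occurred in genes taken as background. Luminal markers were high, with a median control level of 9.82 over 12 genes, and KRT8, the highest, had 12.14 in mimic arrays against 12.40 in control arrays. The 12 had summed levels of 116.95 to 117.99 on mimic arrays against 118.76 to 120.70 on control arrays. Limma called 0 of them, beside 2.31% of all genes, with 4 lower and 0 higher at an unadjusted p under 0.05. Over all genes 12.8% were lower and 7.65% higher at that level. Of 10 endothelial markers, a cell type in which HEY2 is also expressed, the median control level was 5.29, and their summed levels were 55.80 and 55.84 on mimic arrays against 53.04 to 56.06 on control arrays. PECAM1, the highest of them, had 7.43 in mimic and 7.17 in control arrays. The 10 fibroblast markers had summed levels of 51.88 to 52.79 on mimic and 48.25 to 50.27 on control arrays. The sums of the 13 liver and neuron genes, taken as background, were also higher on mimic arrays, 66.17 to 66.74 against 62.64 to 66.11. For 8 leukocyte markers the sums were 45.5 to 46.5 on mimic and 44.6 to 46.2 on control arrays. For 6 markers of smooth muscle and pericytes they were 34.5 to 35.0 and 33.5 to 34.9. All 12 listed interferon-stimulated genes passed the threshold as higher in mimic arrays, with a median difference of 5.78. The part of these lists in the Notch differences was not tested, and fewer cells of a type cannot be told apart from less RNA per cell. Across all probesets the arrays correlated at r = 0.985 between mimic arrays, 0.984 between control arrays and 0.966 to 0.973 across the groups.

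HEY2 encodes a repressor that acts with HES proteins and is known for its role in heart and vessel development. Its gene level was 6.40 and 5.96 on the mimic arrays, against 7.70 and 7.40 on the control arrays. Both mimic arrays lay well below the lower control array. The group means were 6.18 ± 0.311 in mimic and 7.55 ± 0.211 in control arrays (SD, n = 2 each), the widest spread among the 9 genes in each group, and the difference was -1.37 (SE 0.201). By size of decrease HEY2 ranked 13 among 15719 genes. Its mimic level lay above 12 of the 13 liver and neuron genes and its control level above all 13. The threshold was missed without mimic replicate 2, at a difference of -1.15, and also with equal array medians (-1.35), with probesets above the table's median (-1.33), with the median of probesets (-1.25) and with the brightest probeset (-2.35).

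All 8 HEY2 probesets were lower on both mimic arrays than on both control arrays, which was the case for 27.1% of all probesets. Their differences ran from -2.35 to -0.64, with a median of -1.29. The brightest of them read 7.54 and 6.46 on the mimic arrays against 9.66 and 9.04 on the control arrays. Here the mimic arrays stood apart from each other by more than 1 unit, and the gap to the control arrays was wider still. The dimmest read 4.34 and 4.04 on the mimic arrays against 5.75 and 5.70 on the control arrays, so its mimic values fell within the levels of the liver and neuron genes. Another read 5.35 and 4.88 on the mimic arrays against 6.60 and 6.54 on the control arrays, and the same held there. Further HEY2 probesets had mimic values under 6.85, the highest of those levels. The probeset with the smallest difference had 6.23 and 5.95 on the mimic arrays against 6.77 and 6.69 on the control arrays. The brighter 4 probesets had a median difference of -1.29 and the dimmer 4 of -1.33.

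**Figure D2:**
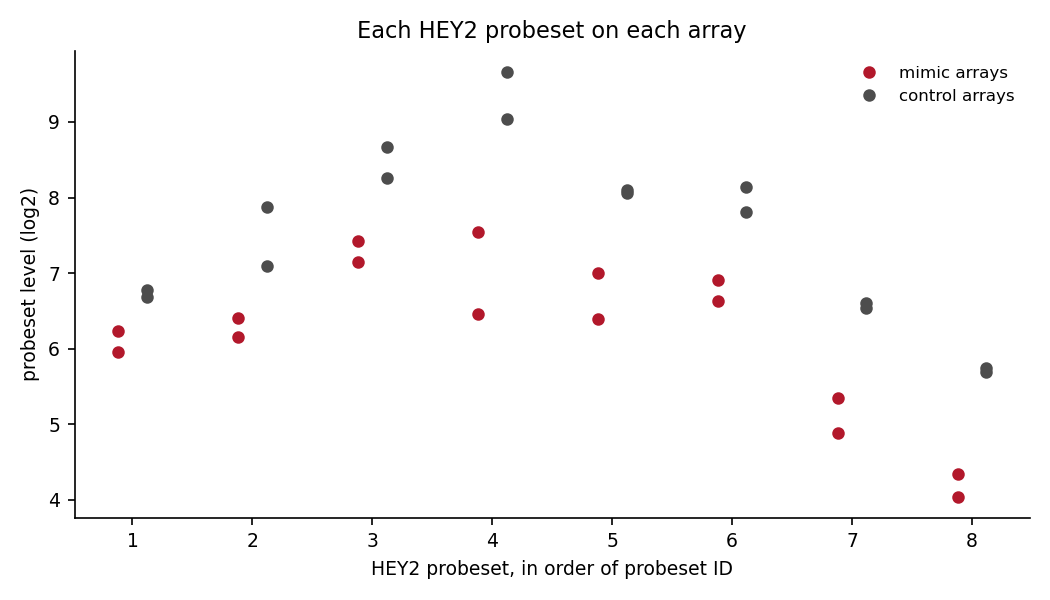
Level (log2) of each of the 8 HEY2 probesets, ordered by probeset ID, on the 2 mimic arrays (red, left) and the 2 control arrays (grey, right). Both red points lie below both grey points in every column, with differences of the means from -2.35 to -0.64.

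No probeset of the 9 genes passed the adjusted threshold by itself in limma, among 206 tested, while 0.918% of all probesets did. At an unadjusted p under 0.05 there were 45 of the 206, 20 lower and 25 higher, beside 15.3% of all probesets. HEY2 had 8 of these 45, NOTCH1 had 16 and NOTCH3 had 9. Both mimic arrays lay outside the control range in 130 of the 206 probesets, 71 below and 59 above, beside 47.8% of all probesets.

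NOTCH1 encodes a receptor found in many epithelia. Its level was 6.98 and 7.08 on the mimic arrays, against 6.43 and 6.56 on the control arrays. The groups did not overlap, and the difference of 0.53 (SE 0.127) was several times the SD of 0.067 in mimic arrays and of 0.091 in control arrays (n = 2 each). NOTCH1 did not pass the threshold (limma adjusted p = 0.107). It passed in 2 of 14 alternatives, without a filter on dim probesets and with an intensity trend, at the same difference. Under these 2 the calls over all genes rose from 363 to 1433 and 1594. With the median of probesets and with the brightest probeset its limma adjusted p was 0.178 and 0.175. Of its 37 probesets, 34 had a value above 0, and in 26 both mimic arrays lay above both control arrays, an order that 20.7% of all probesets had. None lay wholly below. The brightest NOTCH1 probeset read 9.24 and 9.21 on the mimic arrays against 8.53 and 8.38 on the control arrays.

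NOTCH2 and NOTCH3, receptors of the same family, lay on the other side. NOTCH2 had 9.87 and 9.78 on the mimic arrays, against 10.10 and 9.98 on the control arrays, a difference of -0.22 (SE 0.126). NOTCH3 had 8.42 and 8.53 on the mimic arrays, against 8.72 and 8.83 on the control arrays, a difference of -0.30 (SE 0.127). In neither gene did the groups overlap, and neither passed the threshold. Of the 34 NOTCH2 probesets used, 33 had a value below 0, and 24 were lower on both mimic arrays than on either control array, which held for 27.1% of all probesets. The exception was its dimmest probeset, with 6.80 and 5.92 on the mimic arrays against 5.83 and 4.58 on the control arrays, in which arrays of 1 group differed by as much as the groups did. Of the 45 NOTCH3 probesets used, 41 had a value below 0, and 30 were lower on both mimic arrays than on both control arrays, beside the same 27.1%. With the brightest probeset the difference was -0.07 for each of these receptors, and with the median of probesets that of NOTCH3 was -0.47. The human genome holds partial copies of NOTCH2, the NOTCH2NL genes, that are nearly identical to it, so some NOTCH2 probesets may also read those copies.

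The size of the receptor differences varied with the brightness of the probeset. For NOTCH1 the median difference was 0.77 in the brighter 18 probesets, and 17 of these had no overlap between groups, all 18 being above 0. In the dimmer 19 it was 0.44, with 9 free of overlap. For NOTCH3 the order was the other way, with a median difference of -0.15 in the brighter 22 and of -0.48 in the dimmer 23. For NOTCH2 it was -0.19 in the brighter 17 and -0.31 in the dimmer 17. The brightest NOTCH3 probeset had 10.55 and 10.65 on the mimic arrays against 10.55 and 10.78 on the control arrays, and there the groups overlapped. Whether brightness itself set these differences was not tested.

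**Figure D3:**
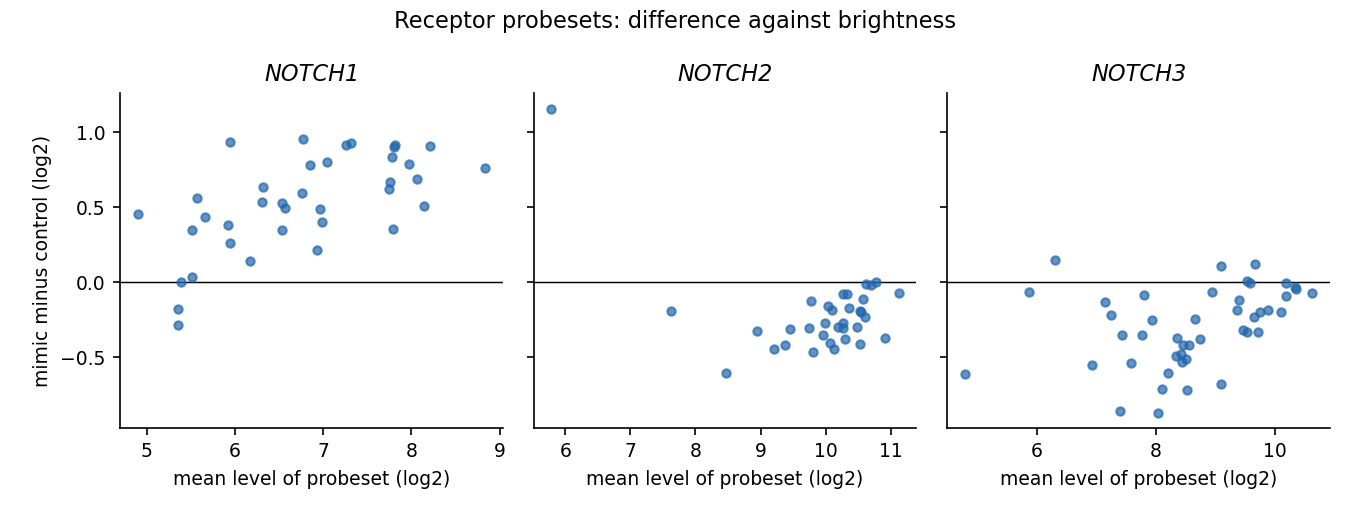
Difference (mimic minus control, log2) of each NOTCH1, NOTCH2 and NOTCH3 probeset past the filter, against its mean level over the 4 arrays (log2). NOTCH1 probesets lie mostly above 0 and NOTCH2 and NOTCH3 probesets mostly below, and the brightest NOTCH3 probesets lie close to 0.

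Of the ligands, which are carried on the surface of the sending cell, DLL1 showed the largest difference. Its level was 5.95 and 5.88 on the mimic arrays, against 5.52 and 5.47 on the control arrays, with no overlap and a difference of 0.42 (SE 0.120). It did not pass the threshold. Of 13 DLL1 probesets used, 12 had a value above 0, and 8 were higher on both mimic arrays than on either control array, beside 20.7% of all probesets. The filter bears on these counts. Probesets with differences of 1.11 and 0.46 had control means of 3.84 and 3.92, under the filter level of 4.08, and passed through their mimic values. The 2 DLL1 probesets that failed the filter had -0.62 and -0.43. Without a filter the DLL1 difference was 0.29. Its mimic level lay above 12 and its control level above 11 of the 13 liver and neuron genes. The brighter 6 probesets had a median difference of 0.28 and the dimmer 7 of 0.43. The brightest DLL1 probeset had 7.83 and 7.60 on the mimic arrays against 7.90 and 7.29 on the control arrays, and its groups overlapped. With probesets above the table's median the DLL1 difference was 0.24.

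JAG1 had 5.12 and 5.12 on the mimic arrays, against 4.96 and 4.72 on the control arrays, a difference of 0.28 (SE 0.138), or 0.16 without control replicate 2. Only 22 of its 32 probesets passed the filter, and its control level lay above 7 of the 13 liver and neuron genes, that is, among them. The JAG1 probesets differed most among themselves, with an SD of 0.528 over their differences, which ran from -1.06 to 1.34. The brightest one, at 7.23 and 7.46 on the mimic arrays against 6.55 and 6.42 on the control arrays, had a difference of 0.86. The lowest, at 3.55 and 3.84 on the mimic arrays against 4.72 and 4.79 on the control arrays, went the other way with both groups at background level. The highest was at background level too, with 4.65 and 5.04 on the mimic arrays against 3.30 and 3.70 on the control arrays. Each of these ends passed the filter only through the group in which it was high. JAG2 had 7.06 and 7.13 on the mimic arrays, against 6.95 and 7.01 on the control arrays. The gap between its groups was narrow, and the difference was 0.12 (SE 0.120), no larger than its error. Its 32 probesets split into 22 above 0 and 10 below. Neither ligand passed the threshold.

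**Figure D4:**
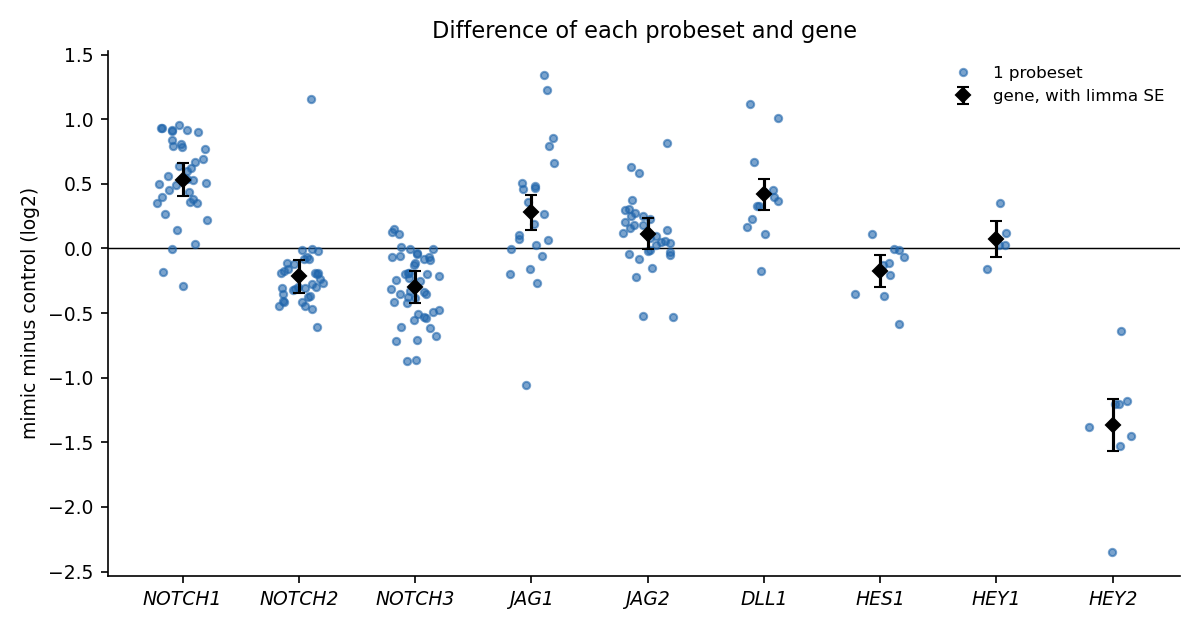
Difference (mimic minus control, log2) of each probeset past the filter (blue points, spread sideways for view) and of each gene (black diamonds, with limma's SE) for the 9 measured Notch genes. The 8 HEY2 probesets all lie below 0, from -2.35 to -0.64. JAG1 probesets spread from -1.06 to 1.34, and dim probesets at background level form both ends.

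Of the other targets, HES1, the repressor through which Notch acts in many tissues, lay close to its control level. It had 9.34 and 9.35 on the mimic arrays, against 9.46 and 9.57 on the control arrays, a difference of -0.17 (SE 0.121). The groups did not overlap, HES1 did not pass the threshold, and 54.7% of all genes had a larger absolute difference, against 1.1% for HEY2. Of its 10 probesets used, 9 had a value below 0, and 5 were lower on both mimic arrays than on either control array, beside 27.1% of all probesets. The HES1 difference was -0.10 with cyclic loess and -0.07 with the brightest probeset. HEY1, the closest relative of HEY2 among these genes, had 4.66 and 4.69 on the mimic arrays, against 4.72 and 4.48 on the control arrays. The groups overlapped, and the difference of 0.07 (SE 0.138) was within its error. It had 5 of its 10 probesets past the filter, and its level lay above 3 of the 13 liver and neuron genes in each group, so these values say little about a decrease of HEY1. Its difference was -0.05 without control replicate 2, -0.07 with the median of probesets and -0.16 with the brightest probeset.

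Of the genes outside the lists, those whose 4 array values, each minus the gene's mean, lay closest to HEY2 were H3C11, FITM2 and SGK1, at Euclidean distances of 0.158, 0.175 and 0.256 over 4 arrays. H3C11, a clustered H3 histone gene, had 9.79 and 9.36 on the mimic arrays against 10.90 and 10.69 on the control arrays. Their differences were -1.22, -1.24 and -1.22.

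The rest of the pathway was described with 64 genes in 7 roles, listed with earlier results of these arrays known, of which 57 were measured. Limma called 0 of the 57, beside 2.31% of all genes, and 12 had an unadjusted p under 0.05, 7 higher and 5 lower. This was 21.1% of the 57, beside 20.4% of all genes, 7.65% higher and 12.8% lower. Their median difference was 0.02. The share of small p in the list was thus near that of all genes. By role the counts were 3 of 7 for receptor cleavage, 3 of 10 for corepressors and 2 of 9 for the nuclear complex. They were 2 of 5 for receptor maturation, 1 of 10 for other receptors and ligands, and 1 of 12 for endocytosis and degradation. For other HES and HEY genes the count was 0 of 4. Each role holds too few genes to be set apart by its count.

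Among the 7 measured genes that cut the receptor, 3 had an unadjusted p under 0.05, beside 20.4% of all genes. APH1B, a subunit of gamma-secretase, had 6.54 and 6.90 on the mimic arrays, against 7.58 and 7.74 on the control arrays. The difference was -0.94 (SE 0.167, limma adjusted p = 0.0634), and its groups did not overlap. APH1B passed with the replicate block (limma adjusted p = 0.0474), without a filter and with an intensity trend, and its adjusted p ran from 0.00487 to 0.29 over the alternatives. Without control replicate 1 or 2 its difference was -1.02 and -0.87. ADAM17, a protease that can cut Notch at the cell surface, had 8.02 on both mimic arrays, against 7.38 and 7.47 on the control arrays, a difference of 0.60 (SE 0.120, limma adjusted p = 0.0805). ADAM17 passed with quantile normalization, with cyclic loess, without a filter and with an intensity trend, and its adjusted p ran from 0.0149 to 0.404 over the alternatives. The third was PSENEN, another subunit of gamma-secretase, with 8.50 and 8.49 on the mimic arrays against 8.96 and 8.98 on the control arrays and named after its value was seen.

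In the nucleus, RBPJ had 7.77 and 7.60 on the mimic arrays, against 7.75 and 7.71 on the control arrays, and the groups overlapped. Its partner MAML1 had 7.44 and 7.18 on the mimic arrays against 7.28 and 7.32 on the control arrays. Both were named after their values were seen. The acetyltransferases CREBBP and EP300, coactivators of many factors, each had a difference of 0.42 (limma adjusted p = 0.167 and 0.19), CREBBP passed with an intensity trend, and of the 9 genes of this role 2 had an unadjusted p under 0.05. Among 10 corepressors the count was 3: SPEN, which binds RBPJ in the absence of Notch signal, had 0.49 (adjusted p = 0.115, with a pass without a filter), TLE1 had 0.40 (adjusted p = 0.166) and TLE2, named after its value was seen, had -0.38.

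Of 10 other receptors and ligands, 1 had an unadjusted p under 0.05, the microfibril protein MFAP2, with 6.81 and 6.85 on the mimic arrays against 7.37 and 7.46 on the control arrays. Its difference of -0.59 (SE 0.120) had a limma adjusted p of 0.0818, which ran from 0.0166 to 0.74 over the alternatives. With all 4 arrays kept, MFAP2 passed with the median of probesets (-1.05), without a filter and with an intensity trend. It had -0.63 without control replicate 1. The brightest MFAP2 probeset had -0.19. NOTCH4 had 0.30 (adjusted p = 0.424), with overlapping groups, and leaving out control replicate 1, control replicate 2 or mimic replicate 1 gave 0.49, 0.11 and 0.17. Of 5 genes of receptor maturation, the protease FURIN and the sugar transferase MFNG had 0.37 and 0.44 (adjusted p = 0.19 and 0.231), with the levels of MFNG among those of the liver and neuron genes. MFNG had 0.65 without control replicate 1, 0.24 without control replicate 2 and 0.10 without a filter. Of 12 genes of endocytosis and degradation, MIB1, a ubiquitin ligase that acts on Notch ligands, had -0.49 (adjusted p = 0.207). Its difference was -0.66 without control replicate 1 and -0.32 without control replicate 2. NUMB, an inhibitor of Notch, had -0.30 (adjusted p = 0.372), with -0.46 without control replicate 1 and -0.14 without control replicate 2. Of the 4 other HES and HEY genes measured, HES4 and HEYL had 0.29 and 0.29 (adjusted p = 0.266 and 0.548), and HEYL, whose groups overlapped, gave 0.59, -0.015 and 0.16 when control replicate 1, control replicate 2 or mimic replicate 2 was left out.

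**Figure D5:**
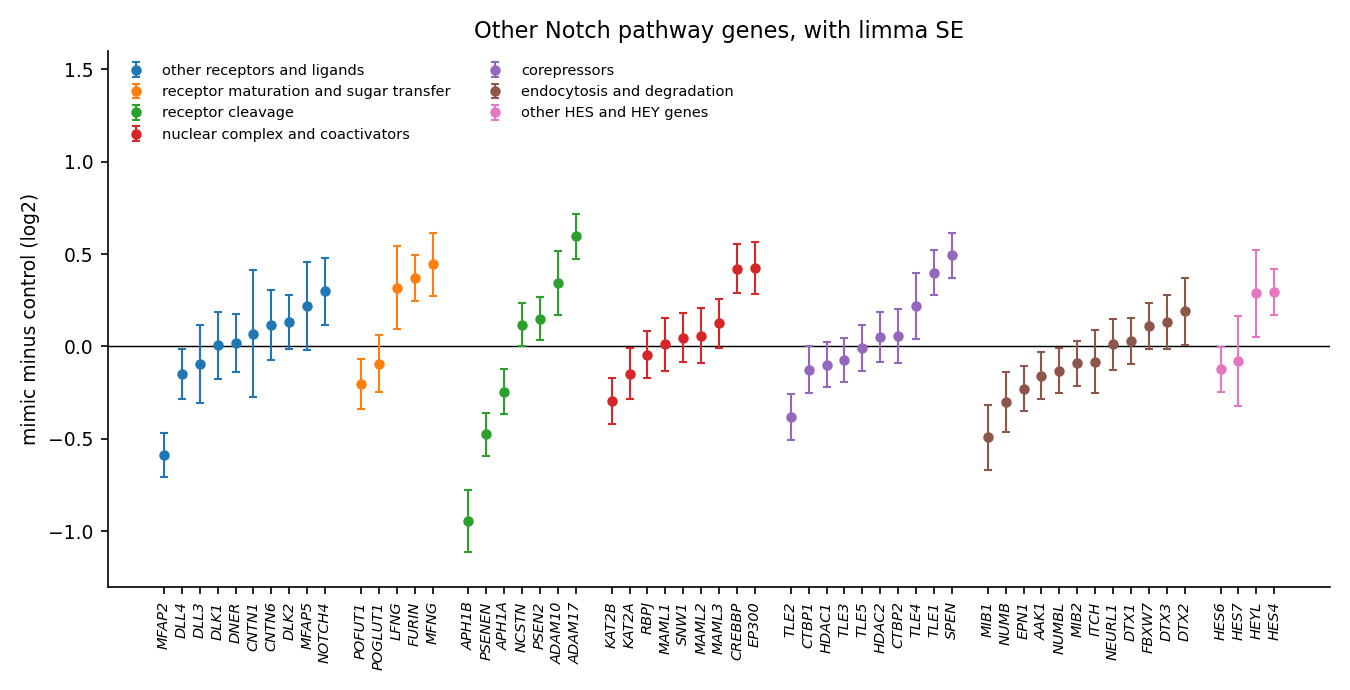
Difference (mimic minus control, log2) of the 57 other measured genes of the Notch pathway, with limma's SE, grouped by role and ordered by difference within each role. Most lie within 0.5 of 0, and APH1B, at -0.94, is the lowest.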

How the data were processed

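RNA of T-47D cells was read on Affymetrix exon arrays, 2 of mimic and 2 of control cells. The deposited values are log2 values per exon-level probeset, and the submitters' processing notes name Partek, RMA and hg18 without versions or sequence. The array interquartile ranges were 4.18 and 4.32 (mimic) and 4.25 and 4.52 (control), so the values do not share 1 distribution. The number of arrays limits the precision.

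Probesets took their symbols from the platform annotation, brought up to date with RefSeq's gene table (25769 of 216780 probesets with 1 symbol updated, 953 kept as listed). A gene's value was the mean of its probesets with exactly 1 symbol and a mean over the arrays at or above the table's 25th percentile, 4.08. The comparison used limma 3.58.1 under R 4.3.3 (lmFit, eBayes, two-sided, Benjamini-Hochberg over 15719 genes, or over 163774 probesets for single probesets), checked on simulated data. That check required recovery only of differences larger than any of the Notch genes, so it does not show that smaller ones are found. SD is over a group's arrays, and SE comes from limma's moderated variance.

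The members and lists were chosen with earlier results of these data known. Other genes were named where they passed the threshold, had 1 of the 2 smallest p of their role, or lay closest to HEY2. PSENEN, RBPJ, MAML1 and TLE2 fall outside these rules and were named after their values were seen. Alternatives were other normalizations, filters, probeset summaries and variance models, a looser threshold, the replicate block and leaving out each array. No genome of the arrays' build was used, so genes have no coordinates here.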

Additional observations from a re-analysis of the deposited data

How the results depend on the processing

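HEY2 was lower in all 14 alternatives, from -2.35 to -1.15, and passed in 9 of them. The count of Notch genes past the threshold was 1, and became 0 with equal array medians, with probesets above the table's median, with the median of probesets and with the brightest probeset, 2 without a filter and with an intensity trend (HEY2 and NOTCH1), and 0 to 1 with an array left out. The sign was followed in 23 genes, the 9 measured members and the 2 genes of each role with the smallest p. PSENEN, RBPJ, MAML1 and TLE2 were not among them. Of the 23, HEY1 and HEYL changed sign. HEY1 had -0.0473 to 0.193 with an array left out, -0.0666 with the median of probesets and -0.158 with the brightest probeset. HEYL had -0.015 to 0.589 with an array left out. With an array left out, both were lowest without control replicate 2. The other 21 kept their sign in every alternative run. The count over the 57 other pathway genes was 0, against 1 with quantile normalization, with cyclic loess, with the replicate block and with the median of probesets, 5 without a filter, 5 with an intensity trend, 3 at a threshold of 0.1, and 0 to 4 with an array left out. The count over all genes, 363, became 1433 without a filter, 1594 with an intensity trend, 122 with the brightest probeset, 979 at a threshold of 0.1, and 172 to 1691 with an array left out, highest without control replicate 1. The count of single probesets, 1503, was 618 to 928 with an array left out. The median difference of the 9 genes, 0.07, was 0.0059 with quantile normalization, -0.0666 with the median of probesets and -0.0473 to 0.0881 with an array left out. The cause of these shifts was not tested. With an array left out the other group alone gives the spread, and the lone array is assumed to vary like it.

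The series' text calls the samples paired, but the labels do not say what a shared replicate number marks. The deviations of same-numbered arrays correlated at r = 0.435 over genes, which with 2 pairs does not establish pairing. With the replicate block 498 genes passed in place of 363, 1147 probesets in place of 1503, and HEY2 was still the 1 Notch gene past the threshold.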
